A study of Rattus norvegicus with 28 samples.

Results

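The comparison was between injured spinal cords taken 8 weeks and 4 weeks after spinal cord injury (SCI), the late chronic and the early chronic stage of the time course. Its members were the 4 arrays of the group T8 and the 4 arrays of the group T4, chosen by their sample labels from 28 arrays in 7 groups. Both groups came from adult female Sprague Dawley rats that had received a 250 kdyn contusion at the thoracic level 8 through a laminectomy, under morphine and isoflurane, and were given enrofloxacin (Alsir) and buprenorphine after surgery. No neural progenitor cells had been transplanted in either group, and the labels tie the immunosuppressant FK-506 (tacrolimus) to transplantation. All animals were perfused with saline at the end. The groups differed in the time from injury to sacrifice (4 or 8 weeks), and so also in the age of the animals. Each array held RNA from a 1.5 cm piece of cord around the epicentre, from T6 to T10 without the dura mater according to the labels. Here T4 and T8 always name the groups, not thoracic levels. Sham animals (T0) and injured animals at 1 and 2 weeks (T1, T2) are used only to place the levels.

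Several systems recur among the genes below. The circadian clock is a feedback loop in which BMAL1 (Arntl) and CLOCK activate the Per, Cry, Nr1d and Dbp genes through E-box elements, and the REV-ERB receptors encoded by Nr1d1 and Nr1d2 repress Bmal1 through response elements that contain the half-site AGGTCA. Transcripts of these genes rise and fall over each day in most tissues. The leptomeninges are the thin inner membranes of the cord, whose fibroblasts and barrier cells make retinoid-binding proteins, prostaglandin D synthase, BMP and Wnt ligands and organic ion transporters. After a contusion, fibroblast-like cells also form a scar within the lesion. In tissue RNA, a change in the number of cells of a type and a change in RNA per cell cannot be told apart.

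Each spot on an array binds 1 transcript and glows with its amount, and values are log2 intensities after quantile normalization between arrays. Between 80.2% and 80.9% of the spots on the T4 arrays and between 79.0% and 82.7% on the T8 arrays were well above background, no spot was saturated, and the number of arrays limits the precision. Markers of cord tissue were present, since all 21 neuronal genes and all 15 genes of central myelin on the array were well above background on all 8 arrays. For 5 of the 8 arrays (T4 replicates 1, 2 and 3 and T8 replicates 1 and 3) the deposited scanner output and the deposited column of normalized values conflict on the sample. The normalized columns carry their own sample names and were used throughout. The 3 arrays without a conflict (T4 replicate 4 and T8 replicates 2 and 4) were also the 3 arrays of scan session 1, and the other 5 were scanned in session 2. Each result therefore has a difference within session 1, which holds only undisputed arrays, and within session 2, which holds only disputed ones.

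Few genes separated the stages. limma, fitted to the 28 arrays, called 32 of 35469 features at an adjusted p under 0.05, of which 31 were higher (0.0874% of the features tested) and 1 was lower (0.00282%) at T8. At an unadjusted p under 0.05, 1076 features were higher (3.03%) and 640 lower (1.8%), and the median log2 fold change over all features was -0.01. If nothing differed, about 1 in 20 features would pass this threshold, so passing it does not by itself set a gene apart. Of the 32 called features, 20 carried a gene symbol, and the 12 others were transcripts without one, all higher, 11 of them by 0.84 to 1.39 on the log2 scale and BQ194244 as a bound given below. In 31 of the 32 the T4 and T8 values did not overlap, against 2.22% of all features with every T8 array above every T4 array and 1.68% with every T8 array below. The called features were chosen on these same values, so nothing follows from that share. All 32 differences kept their sign within both scan sessions and on each of the 3 slides that carried an array of each group. For the 31 without overlap this was fixed in advance, since any split of the same arrays keeps the sign. The number of calls rested on single arrays, at 3 without T4 replicate 2, 5 without T4 replicate 3 or T8 replicate 4, and 88 without T4 replicate 4. With each scanner output assigned as deposited it was 0 (624 features at an unadjusted p under 0.05), and with the 12 undisputed arrays of the series it was 112, of which 13 were higher, 99 were lower and 1 was among the 32. Next outside the threshold lay Igfbp6 (2.19, adjusted p = 0.0513) and Cyp26b1 (1.35, adjusted p = 0.0513).

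**Figure D1:**
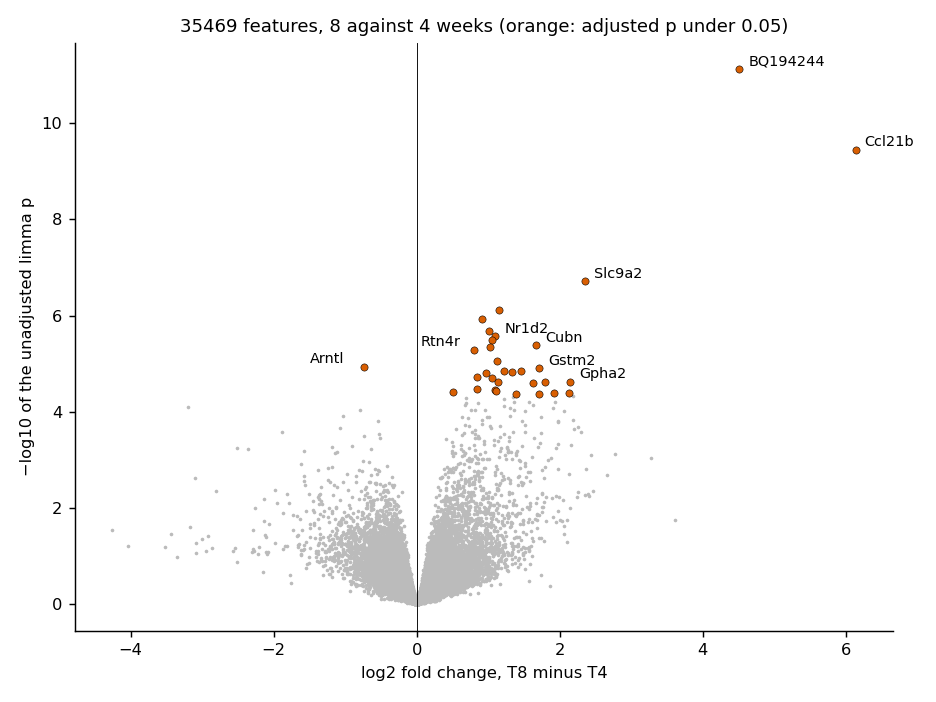
Each point is 1 of 35469 features, with the log2 fold change of T8 minus T4 on the x axis and the −log10 of the unadjusted limma p on the y axis; the 32 features at an adjusted p under 0.05 are orange. All but 1 of the orange points (Arntl) lie to the right of 0, and Ccl21b with the overlapping feature BQ194244 stands farthest out.

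Clock genes made up 4 of the 20 called symbols. Of the 21 genes of the clock list on the array, 3 were called higher and 1 lower, where 0.0874% of all features were called higher and 0.00282% lower. Nr1d1, Nr1d2 and Dbp were higher and Arntl, now named Bmal1, was the only feature called lower at T8. Of the 21 genes of the clock list on the array, all well above background on all 8 arrays, 6 were higher and 3 lower at an unadjusted p under 0.05 (3.03% and 1.8% of all features). The members moved in opposite directions, so that the list's median was 0.07, close to that of all features.

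The promoters of the called clock genes, the 250 bases before the annotated start in RefSeq (build GRCr8), are shown because these genes moved in opposite directions; capitals mark the E-box CACGTG and the half-site AGGTCA, the latter searched on both strands.
Nr1d1 (chr10:84229455-84229704, minus strand): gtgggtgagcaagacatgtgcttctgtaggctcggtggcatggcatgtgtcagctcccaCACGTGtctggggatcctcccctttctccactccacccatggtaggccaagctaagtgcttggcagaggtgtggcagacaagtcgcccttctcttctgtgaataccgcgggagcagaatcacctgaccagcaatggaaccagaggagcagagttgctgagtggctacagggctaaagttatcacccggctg
Nr1d2 (chr15:9954784-9955033, plus strand): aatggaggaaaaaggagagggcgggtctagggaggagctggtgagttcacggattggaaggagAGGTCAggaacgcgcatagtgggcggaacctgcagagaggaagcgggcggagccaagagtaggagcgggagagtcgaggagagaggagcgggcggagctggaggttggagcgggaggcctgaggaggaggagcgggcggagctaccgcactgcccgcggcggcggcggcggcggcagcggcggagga
Dbp (chr1:105312006-105312255, plus strand): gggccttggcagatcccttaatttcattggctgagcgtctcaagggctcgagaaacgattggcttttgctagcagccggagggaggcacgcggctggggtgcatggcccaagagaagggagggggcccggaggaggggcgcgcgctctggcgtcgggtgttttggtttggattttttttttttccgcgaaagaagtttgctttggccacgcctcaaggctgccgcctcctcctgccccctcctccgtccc
Bmal1, the Arntl of the array (chr1:176766078-176766327, plus strand): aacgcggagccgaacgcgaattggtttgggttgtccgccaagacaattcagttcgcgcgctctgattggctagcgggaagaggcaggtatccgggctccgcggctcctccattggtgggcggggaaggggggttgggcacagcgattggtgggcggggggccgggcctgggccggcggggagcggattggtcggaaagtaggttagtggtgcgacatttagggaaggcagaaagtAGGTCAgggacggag

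Nr1d1 held an E-box starting at base 60 of this window, and a second annotated start of Nr1d1 held neither motif. Nr1d2 held the half-site at base 64 and Bmal1 held it at base 236, close to the start of the gene. Dbp held neither motif in this window. Among the other clock genes at an unadjusted p under 0.05, Tef and Bhlhe40 held an E-box, and Per2 held the D-box TTATGTAA and neither of the other motifs, while Nfil3 held none of the 3. Cry1 had no promoter in the reference used and was not searched. An E-box was present in 5.59%, the half-site in 14.1% and the D-box in 0.828% of the 33469 windows of this length. These matches describe letters in the window and were not tested as sites.

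Nr1d1, a repressor of Bmal1, had log2 levels of 7.98, 7.85, 7.97 and 8.17 at T4 and 9.56, 9.67, 10.03 and 9.90 at T8. The T4 arrays lay within a narrow band, every T8 array lay above it, and the T8 levels also exceeded the 8.48 to 9.15 of the sham arrays. The difference was 1.80 on the log2 scale, or 3.48-fold (standard error 0.34, adjusted p = 0.0370). Its paralogue Nr1d2 had 5.77, 6.05, 5.88 and 6.06 at T4 against 6.71, 7.37, 6.94 and 7.12 at T8 (log2 fold change 1.10, standard error 0.18, adjusted p = 0.0138). Here the groups did not overlap either, but the T8 arrays overlapped the sham arrays (6.44 to 7.24). Dbp, a transcription factor driven directly by the clock, had 12.25, 12.32, 12.40 and 12.53 at T4 and 13.23, 13.82, 13.48 and 13.50 at T8 (log2 fold change 1.13, standard error 0.22, adjusted p = 0.0370). Every T8 array exceeded every sham array (12.29 to 12.61), whereas the T4 arrays overlapped them.

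Arntl, which encodes the activator of the loop, had log2 levels of 11.12, 11.25, 11.02 and 10.95 at T4 and 10.66, 10.05, 10.41 and 10.28 at T8. All T8 arrays lay below all T4 arrays, and the mean fell from 11.09 ± 0.13 to 10.35 ± 0.26 (SD, n = 4), a log2 fold change of -0.74 with a standard error of 0.13 and an adjusted p = 0.0307. The sham arrays (10.74 to 10.98) lay above the T8 arrays and below or among the T4 arrays. At 1 week the mean (10.41) was near that of T8, and at 2 weeks (11.00) near that of T4. Clock, the partner of BMAL1, differed by 0.06 (unadjusted p = 0.754).

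Further members at an unadjusted p under 0.05, none of them called after adjustment, followed by role. Among the repressors and output factors, Per2 had 9.15, 9.10, 9.21 and 8.92 at T4 and 9.48, 9.70, 9.74 and 9.41 at T8, with no overlap (difference 0.49, unadjusted p = 0.0124). Tef, a relative of Dbp, was higher in all T8 arrays (difference 0.47, unadjusted p = 0.00698), and Bhlhe40, a repressor, overlapped between the groups (difference 0.48, unadjusted p = 0.0188). In the opposite direction lay Cry1, with 10.31, 10.36, 10.34 and 10.50 at T4 and 9.73, 10.06, 9.70 and 10.10 at T8 (difference -0.48, unadjusted p = 0.0264), and Nfil3, a repressor of Dbp targets (difference -0.64, unadjusted p = 0.0490). Per1 (0.42), Per3 (0.49), Cry2 (0.16) and Rora (-0.02) had unadjusted p between 0.127 and 0.963. The hour at which tissue was taken is not given in the sources used here, so hour and week after injury cannot be told apart for these genes.

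Within session 1, the 4 called clock genes differed by 1.61 (Nr1d1), 1.19 (Nr1d2), 1.13 (Dbp) and -0.79 (Arntl), and within session 2 by 1.87, 0.93, 1.03 and -0.59 in the same order. These genes were called on the same 8 arrays. The nearness of the sizes in both sessions therefore tells nothing about which sample names are right. With each scanner output assigned as deposited they were 0.38, 0.23, 0.52 and -0.23, with no call. All 4 calls were lost without T4 replicate 1, 2 or 3 or T8 replicate 4. Cry1 and Nfil3 had differences above 0 in the deposited assignment (0.26 and 0.00947), where 1 clock gene was higher and 0 lower at an unadjusted p under 0.05.

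**Figure D2:**
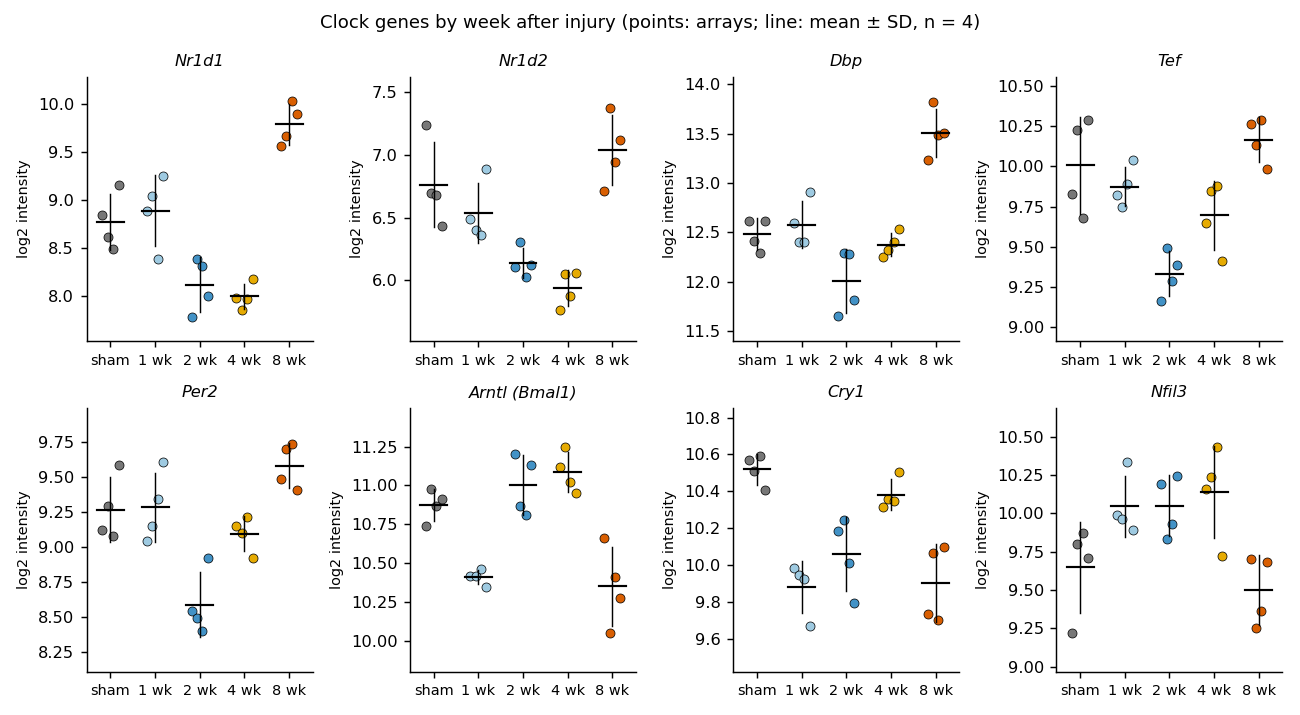
Log2 intensities of 8 clock genes by group (sham, then 1, 2, 4 and 8 weeks after injury), with a point for each array and a line for the mean ± SD of 4 arrays. Nr1d1, Nr1d2, Dbp, Tef and Per2 lie higher at 8 than at 4 weeks in every array. Arntl, Cry1 and, by a narrow margin, Nfil3 lie lower in every array, and the Arntl level at 1 week resembles that at 8 weeks.

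The largest rise was in Ccl21b (now Ccl21), a chemokine of lymphatic vessels and lymphoid stroma that draws CCR7-bearing cells. Its log2 levels were 5.96, 3.88, 3.35 and 4.81 at T4 and 9.39, 10.44, 11.41 and 11.31 at T8, so that the lowest T8 array lay far above the highest T4 array. The mean differed by 6.14, or 70.4-fold (standard error 0.59, adjusted p = 6.25e-06). On 1 of the T4 arrays the probe was not well above background, and the sham arrays (1.38 to 3.23) lay below all T4 arrays. Means at 1 and 2 weeks were 2.90 and 3.08. An unnamed transcript, BQ194244, named here after its values were seen, was not well above background on any T4 array and was so on all T8 arrays, with 4.53, 5.23, 6.95 and 6.81. It was at least 10.6-fold higher at T8 (measured means 1.37 and 5.88, adjusted p = 2.68e-07), where the bound sets the T8 mean against the lowest signal above background on each T4 array. Its probe (rn4 chromosome 5, bases 59239219 to 59239278) and that of Ccl21b (59239182 to 59239241) share 23 bases on opposite strands, so that the pair reads 1 place in the genome and is not independent.

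Genes that act with or beside Ccl21, looked up after its value was seen, had smaller differences. Ccl19, the other ligand of CCR7, had means of 12.46 and 13.29 (difference 0.83, unadjusted p = 0.0372). The receptor gene Ccr7 differed by -0.21 (unadjusted p = 0.664) and was well above background on 3 T4 and 2 T8 arrays. The lymphatic markers Lyve1 (-0.04), Prox1 (-0.32) and Pdpn (0.06) had unadjusted p of 0.893, 0.292 and 0.799. Vegfc, the growth factor of lymphatic endothelium, was called higher, with 10.53, 10.07, 9.75 and 10.88 at T4 and 10.98, 11.34, 11.66 and 11.70 at T8 (log2 fold change 1.11, standard error 0.22, adjusted p = 0.0469). Its groups did not overlap, although T4 replicate 4 came close to the lowest T8 array.

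Slc9a2, a sodium/proton exchanger of epithelial membranes, had the largest rise of the called symbols after Ccl21b. Its levels were 9.29, 9.02, 8.28 and 10.19 at T4 and 11.43, 11.25, 11.62 and 11.88 at T8 (log2 fold change 2.35, standard error 0.32, adjusted p = 0.00227). T4 replicate 4 stood above the other T4 arrays yet below every T8 array, and the difference was 1.38 within session 1 and 2.66 within session 2. Sham arrays (7.50 to 7.98) and the means at 1 and 2 weeks (7.49 and 8.30) lay lower. Ccl21b, BQ194244 and Slc9a2 kept their calls whichever T4 or T8 array was left out. Over the 16 planned settings run for the named genes, each kept its call in 15. The highest limma adjusted p there was 0.0730, 0.107 and 0.232 in the same order. These settings include the fit to the 8 T4 and T8 arrays alone, in which 1 of all 32 calls was kept. With the deposited samples, none of the 32 calls was kept. Of the 16 sodium/proton exchanger and bicarbonate transport genes on the array, no other was at an unadjusted p under 0.05. Over the 28 arrays, the symbols whose levels followed Slc9a2 most closely were Tekt2 (Pearson r 0.945), Wnt2b (Pearson r 0.923), Chrd (Pearson r 0.921), Gpc3 (Pearson r 0.912) and Fam101a (Pearson r 0.912), a description over arrays that share groups and slides. For Arntl they were Tmod1 (0.678), Mal (0.671), Zfp180 (0.668), Adarb2 (0.664) and Sept4 (0.658), all less close.

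**Figure D3:**
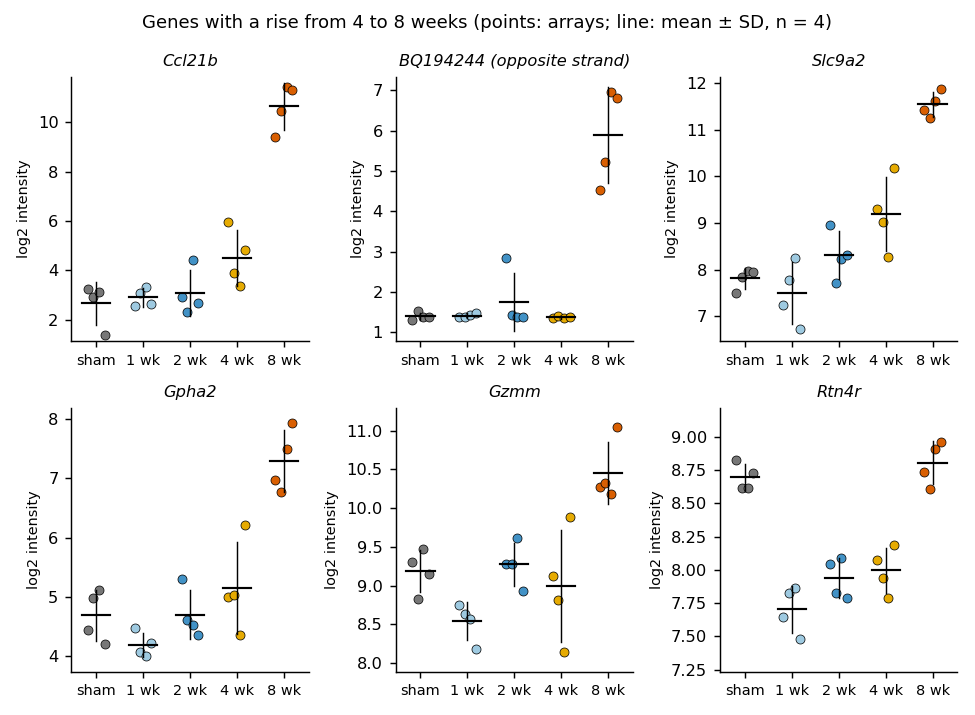
Log2 intensities of 6 features called higher at 8 weeks, by group, with a point for each array and a line for the mean ± SD of 4 arrays. Ccl21b and BQ194244 leave the lower part of their scale at 8 weeks, Slc9a2, Gpha2 and Gzmm have a spread-out 4-week group topped by replicate 4, and Rtn4r lies at 8 weeks where the sham arrays lie.

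The remaining called symbols encode transporters, enzymes, signalling proteins and others. Among the 31 features called higher, T4 replicate 3 was the lowest T4 array in 21 and T4 replicate 4 the highest in 21. Many calls thus share an order of the T4 arrays, and whether the genes changed separately was not tested. Among transporters and endocytic receptors, Slc47a1, an exporter of organic cations, had 8.05, 6.95, 6.06 and 7.66 at T4 and 9.23, 9.06, 9.77 and 9.19 at T8 (log2 fold change 2.13, standard error 0.42, adjusted p = 0.0469). Slco2a1, which carries prostaglandins, had 4.87, 4.86, 4.57 and 4.71 and 6.50, 5.41, 6.63 and 6.95 (log2 fold change 1.63, standard error 0.31, adjusted p = 0.0376), and was listed between 1.39 and 1.45 in the sham arrays. Cubn, the endocytic receptor cubilin, had 8.61, 7.24, 7.17 and 7.45 and 9.16, 9.19, 8.99 and 9.83 (log2 fold change 1.68, standard error 0.28, adjusted p = 0.0162). In each of these the groups did not overlap. Wnk4, a kinase that regulates ion transporters, rose by 1.10 (adjusted p = 0.0469).

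Among enzymes, Ptgis, which makes prostacyclin, had 8.79, 7.97, 7.49 and 9.07 at T4 and 10.18, 9.70, 10.40 and 10.73 at T8 (log2 fold change 1.92, standard error 0.38, adjusted p = 0.0469). Gstm2, a glutathione transferase, had 8.44, 8.71, 7.74 and 9.35 and 10.18, 9.94, 10.39 and 10.59 (log2 fold change 1.71, standard error 0.31, adjusted p = 0.0307), with 5.42 to 5.74 in the sham arrays. Gzmm, a protease of cytotoxic granules, had 9.13, 8.82, 8.14 and 9.88 and 10.27, 10.33, 10.18 and 11.04 (log2 fold change 1.47, standard error 0.27, adjusted p = 0.0307). Of the 16 genes of NK cells and cytotoxic granules on the array, Gzmm and Eomes were higher at an unadjusted p under 0.05 (3.03% of all features). Eomes was not well above background on any of the 8 arrays. Prf1 differed by 0.11 (unadjusted p = 0.821) and Klrd1 by 0.31 (unadjusted p = 0.609), and of 15 T cell genes 1, Zap70, was higher (0.46, unadjusted p = 0.0333).

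Gpha2, a subunit of the glycoprotein hormone thyrostimulin, had 5.00, 5.02, 4.35 and 6.21 at T4 and 6.97, 6.76, 7.49 and 7.94 at T8 (log2 fold change 2.15, standard error 0.41, adjusted p = 0.0370). Tg, the precursor of thyroid hormone, was at a low level and moved little but with narrow spread, from 5.64 ± 0.02 to 6.15 ± 0.14 (SD, n = 4), a log2 fold change of 0.51 with a standard error of 0.10 and an adjusted p = 0.0469. Rtn4r, the receptor for the myelin inhibitor Nogo, had 8.07, 7.94, 7.79 and 8.19 at T4 and 8.74, 8.61, 8.91 and 8.96 at T8 (log2 fold change 0.81, standard error 0.14, adjusted p = 0.0163). The T8 arrays overlapped the sham arrays (8.62 to 8.83), and the T4 arrays lay below both. Osr1, a transcription factor of mesenchyme, rose by 1.72 (adjusted p = 0.0469).

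Of 20 genes of the leptomeninges and dura on the array, 11 were higher at T8 and 0 lower at an unadjusted p under 0.05, where 3.03% of all features were higher. As with the clock list, the members were chosen with earlier results of these data known, so these counts are a description. In all, 19 had a positive difference, and 19 were well above background on all 8 arrays. The median log2 fold change was 0.74, against -0.01 over all features, and 1 member (Slc47a1) was called. The mean log2 level of the list was 9.97 to 10.51 in the T4 arrays and 10.92 to 11.38 in the T8 arrays, so that the groups did not overlap, and 8.63 to 8.97 in the sham arrays. The median difference was 0.49 within session 1 and 0.90 within session 2. Without T4 replicate 3, which was the lowest T4 array in 9 of the 11 genes, 9 members were higher at an unadjusted p under 0.05. On the 12 undisputed arrays of the series, with 1 T4 array, 1 member was, with a median of 0.49, and with the deposited samples 1 was, with a median of 0.39 and with Mgp at -0.23.

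Ptgds, which makes prostaglandin D2 and is among the most abundant leptomeningeal transcripts, had 16.83, 17.02, 16.43 and 17.43 at T4 and 17.69, 17.78, 17.75 and 17.99 at T8, with no overlap (difference 0.88, unadjusted p = 3.46e-04). Crabp2, a carrier of retinoic acid, had 13.18, 12.94, 11.68 and 13.95 and 14.20, 14.35, 14.28 and 14.89 (difference 1.49, unadjusted p = 0.00298), again with no overlap. Foxc2, a transcription factor of mesenchyme, had 10.90, 10.50, 10.01 and 10.86 and 11.69, 11.46, 11.22 and 11.97 (difference 1.02, unadjusted p = 9.54e-04). Crabp2 and Foxc2 lay above the sham arrays at T4 and at T8, and Ptgds overlapped them (16.12 to 16.61) at T4 through replicate 3. Other members were the ligand genes Wnt6 (1.33), Wnt10a (0.96) and Bmp7 (0.79), the matrix genes Mgp (1.15) and Ogn (0.86) and the anion carriers Slc22a6 (1.34) and Slc13a3 (0.41), with unadjusted p between 7.03e-04 and 0.0210. Aldh1a2 (0.24, unadjusted p = 0.484), Cldn11 (0.12, unadjusted p = 0.655) and Aldh1a1 (-0.11, unadjusted p = 0.662) did not pass. The part that the amount of membrane left on the cord had in these values was not tested.

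**Figure D4:**
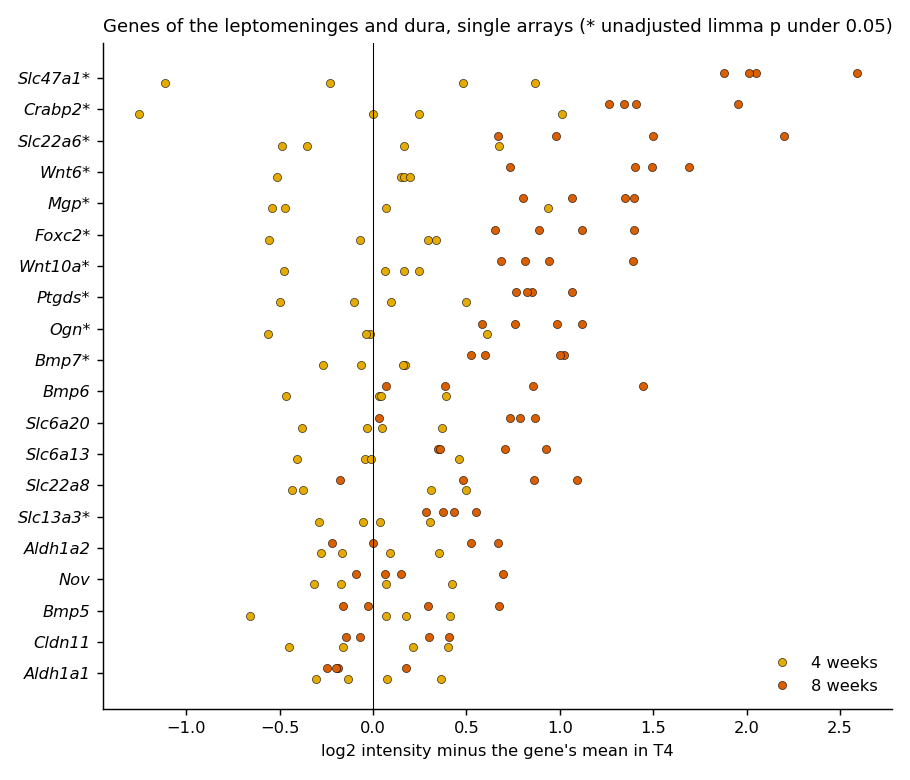
Single-array log2 intensities of the 20 genes of the leptomeninges and dura, each minus the gene's mean in T4 (x axis), with the 4-week arrays in yellow and the 8-week arrays in orange; a star marks an unadjusted limma p under 0.05. For the starred genes most 8-week arrays lie to the right of the 4-week arrays, while the lowest rows overlap.

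Of 22 epithelial junction and keratin genes on the array, 8 were higher and 0 lower at an unadjusted p under 0.05 (3.03% and 1.8% of all features), with a median of 0.15. Evpl, which encodes the cornified envelope protein envoplakin, was called, with 6.06, 5.89, 5.24 and 6.05 at T4 and 7.12, 6.70, 6.98 and 7.76 at T8 (log2 fold change 1.33, standard error 0.24, adjusted p = 0.0307). Upk1b, a urothelial and mesothelial tetraspanin, had 6.14, 4.79, 4.06 and 6.89 and 7.47, 7.80, 8.06 and 8.13 (difference 2.40, unadjusted p = 0.00508). Cldn1, a claudin of tight junctions, had 3.59, 4.74, 4.01 and 5.61 and 6.40, 6.77, 6.53 and 6.77 (difference 2.13, unadjusted p = 0.00193). Neither pair of groups overlapped. Cdh1, the gene of E-cadherin, was 2.97 to 4.44 in the sham arrays, 11.63, 10.87, 9.72 and 11.97 at T4 and 12.99, 12.29, 12.90 and 13.03 at T8 (difference 1.76, unadjusted p = 0.00954). Msln (2.15), Krt19 (1.12), Krt8 (0.89) and Dsp (0.88) completed the 8, and T4 replicate 4 was the highest T4 array in 5 of them. Epcam (0.11, unadjusted p = 0.560), Krt5 (-0.11, unadjusted p = 0.649) and Ppl (-0.60, unadjusted p = 0.254) did not pass. Without T4 replicate 3, 5 members were higher at this level, on the undisputed arrays 1 was higher and 1 lower, and with the deposited samples 2 were higher and 0 lower, with Msln at -0.55.

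Secreted ligands and antagonists of the BMP and Wnt pathways were among the higher genes. Of 30 BMP and TGF-beta genes, 9 were higher and 0 lower at an unadjusted p under 0.05 (3.03% and 1.8% of all features; median of the list 0.19), and of 28 Wnt genes 8 were higher and 1 lower (median 0.26). Both lists share members with that of the meninges (Bmp7, Wnt6 and Wnt10a among those that passed). Among antagonists, Chrdl1, which binds BMPs, had 8.59, 8.63, 8.49 and 8.69 at T4 and 9.34, 9.86, 9.81 and 9.62 at T8 (log2 fold change 1.06, standard error 0.20, adjusted p = 0.0344), and its relative Chrd differed by 0.78 (unadjusted p = 2.61e-04) and Grem1 by 0.82 (unadjusted p = 0.0221). Among ligands, Gdf10 had 9.94, 7.93, 8.00 and 9.46 and 10.52, 10.62, 11.99 and 10.84 (difference 2.16, unadjusted p = 4.80e-04), with T4 replicates 1 and 4 above the other T4 arrays, and Gdf5 differed by 0.74 (unadjusted p = 0.00245) and Tgfb3 by 0.39 (unadjusted p = 0.00202). The pseudoreceptor gene Bambi differed by 0.24 (unadjusted p = 0.0381). Of the targets, Id1 was higher (0.67, unadjusted p = 7.06e-04), and Id2, Id3 and Id4 differed by 0.25, 0.19 and 0.23 with unadjusted p between 0.141 and 0.199.

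On the Wnt side, the ligand gene Wnt2b had 8.67, 8.29, 7.43 and 9.30 at T4 and 9.90, 10.03, 10.07 and 10.48 at T8, with no overlap (difference 1.70, unadjusted p = 5.51e-04). The amplifier gene Rspo3 differed by 0.81 (unadjusted p = 0.00541), and the antagonist genes Sfrp1 by 1.19 (unadjusted p = 0.00260) and Frzb by 0.52 (unadjusted p = 0.0135). Dkk3, of the Dickkopf family, differed by 0.50 (unadjusted p = 0.00628). The ligand gene Wnt8b was not well above background on any T4 array and was so on 3 T8 arrays, at least 1.78-fold higher (means 3.03 and 3.94, unadjusted p = 0.0357). Sfrp2, of the Sfrp1 family, was lower, with 5.74, 6.02, 5.83 and 5.79 at T4 and 5.35, 5.19, 5.58 and 4.80 at T8 (difference -0.61, unadjusted p = 0.00801). The targets Axin2 (0.24, unadjusted p = 0.128) and Lef1 (0.09, unadjusted p = 0.673) did not pass. In the undisputed arrays, 3 BMP and TGF-beta genes were higher and 0 lower at an unadjusted p under 0.05, and 2 Wnt genes were higher and 1 lower. With the deposited samples 1 BMP and TGF-beta gene was higher and 0 lower, 0 Wnt genes were higher and 1 lower, and the medians were 0.13 and 0.05, with Bmp7 at -0.10 and Frzb at -0.0537.

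Of 14 genes of the IGF system, the binding protein genes Igfbp6 and Igfbp2 were higher at an unadjusted p under 0.05 (3.03% of all features). Igfbp6, which binds IGF2 preferentially, had 11.02, 10.62, 9.14 and 11.22 at T4 and 12.36, 12.75, 12.37 and 13.26 at T8 (log2 fold change 2.19, standard error 0.44, adjusted p = 0.0513). Every T8 array lay above every T4 array, and the sham arrays (9.51 to 10.77) overlapped the T4 arrays. Igf1 (-0.21), Igf2 (0.22) and Igf1r (-0.04) had unadjusted p between 0.404 and 0.857. Of the 14821 symbols, 158 were higher with no overlap, at an unadjusted p under 0.01 and well above background on all 8 arrays. The 12 largest rises among these also included the matrix and secreted protein genes Smoc2 (2.36), Prg4 (2.30), C1qtnf7 (2.06) and Podnl1 (1.98) and the collagen-binding integrin gene Itga10 (1.98). Prg4, the joint lubricant lubricin, had 8.65, 8.33, 6.46 and 9.83 at T4, 10.51, 9.91, 10.30 and 11.75 at T8 and 3.63 to 4.82 in the sham arrays (unadjusted p = 2.60e-04). Of 32 fibrotic scar genes 3 (Mfap5, Ogn and Fn1) were higher at an unadjusted p under 0.05, while the collagen genes Col1a1 (0.15, unadjusted p = 0.711) and Col3a1 (0.08, unadjusted p = 0.877) did not pass.

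All 21 genes of proliferating cells on the array had a negative difference, although none was called. At an unadjusted p under 0.05, 6 were lower and 0 higher, where 1.8% of all features were lower, and the median was -0.35. The mean level of the list was 8.30 to 8.64 at T4, 7.94 to 8.19 at T8 and 6.82 to 7.24 in the sham arrays. The ribonucleotide reductase gene Rrm2 had 6.85, 6.43, 6.32 and 6.38 at T4 and 6.14, 6.04, 5.84 and 5.72 at T8 (difference -0.56, unadjusted p = 0.0128). The cyclin gene Ccnb2 had 8.28, 7.95, 7.80 and 7.97 and 7.65, 7.48, 7.30 and 7.28 (difference -0.58, unadjusted p = 0.0209), and neither gene overlapped between the groups. Top2a (-0.58), Bub1 (-0.42) and Cdc2 (now Cdk1, -0.54) had unadjusted p between 0.0228 and 0.0467. In 5 of the 6 the group means fell from 1 to 2, 4 and 8 weeks, as for Ccnb2 with 9.93, 8.93, 8.00 and 7.43, and in all 6 the mean at T8 was still above that of the sham group. The exception was Aurkb, which had the largest difference (-2.51, unadjusted p = 5.72e-04) and uneven T4 arrays, at 6.64, 10.02, 9.95 and 8.80 against 6.52, 5.76, 6.29 and 6.79 at T8. Without T8 replicate 4, 2 members were lower at an unadjusted p under 0.05, on the undisputed arrays 3 were, and with the deposited samples 0 were, with a median of -0.70.

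By the same rule as for the rises, 31 of the 14821 symbols were lower, against 158 higher. Without that rule, 1.68% of all features had every T8 array below every T4 array, and 2.22% had every T8 array above. The 12 largest falls were led by Trim16, a ubiquitin ligase. It had 8.41, 8.60, 8.97 and 9.01 at T4 and 6.17, 6.31, 6.65 and 6.45 at T8 (difference -2.36, unadjusted p = 5.82e-04). The sham arrays of Trim16 (7.30 to 9.70) spanned the T4 arrays. Tspan18, a tetraspanin, had 7.84, 6.91, 7.21 and 6.97 and 5.70, 5.33, 5.90 and 5.52 (difference -1.62, unadjusted p = 0.00122). The list went on with Nlrp10 (-1.57), Man1a2 (-1.19), Ccdc77 (-1.07), Ckap2 (-0.85), Ctse (-0.76), Mst4 (-0.70), Angptl4 (-0.67), Cks2 (-0.66) and Baz1a (-0.64), besides Arntl. Ckap2 and Cks2 belong to the cell cycle. Fabp4, a lipid chaperone of adipocytes and macrophages, was lower (-1.38, unadjusted p = 0.00164), and Vip, a neuropeptide gene, had 10.04, 11.70, 11.02 and 11.32 at T4 and 9.68, 9.27, 10.95 and 9.32 at T8, with an overlap (difference -1.21, unadjusted p = 0.00287).

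For the main cell types of the cord, few or no members passed, where 3.03% of all features were higher and 1.8% lower. At an unadjusted p under 0.05, 0 of 21 neuronal genes (median -0.10), 0 of 20 microglia and macrophage genes (-0.12), 0 of 17 reactive astrocyte genes (0.01), 0 of 17 interferon response genes (-0.30), 0 of 14 MHC and antigen presentation genes (0.25) and 0 of 26 cAMP signalling genes (-0.06) passed in either direction. Of 16 astrocyte genes, the gap junction genes Gjb6 (0.93, unadjusted p = 0.00392) and Gjb2 (1.03, unadjusted p = 0.0133) were higher, and Gjb2, which leptomeningeal cells also express, overlapped between the groups. Of 15 central myelin genes, Ermn was lower (-0.55, unadjusted p = 0.0371), and of 8 oligodendrocyte precursor genes Vcan and Ptprz1 were lower. Of 16 Schwann cell genes, Pmp2 (-0.52) and Erbb3 (-0.67) were lower and Mpzl2 (0.46) was higher. A p above the threshold with 4 arrays in each group does not show that these genes were alike at both stages.

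Markers of other tissues near the cord were measured beside the meningeal and epithelial genes. Over all features, 3.03% were higher and 1.8% lower at an unadjusted p under 0.05. Of 14 endothelial genes, Cdh5 (0.71) and Emcn (0.39) were higher at an unadjusted p under 0.05, as were Aqp1 (1.69) and Folr1 (0.32) of 13 choroid plexus genes, while the choroid plexus gene Ttr differed by 0.08 (unadjusted p = 0.783). Of 21 cartilage and bone genes, Chrd, Gdf5, the phosphatase gene Alpl (1.10) and Phex were higher and the bone matrix gene Ibsp (-1.12) was lower, and Phex was well above background on 1 of the 8 arrays, from T8, so that no fold is given. Of 23 skeletal muscle genes, Myom2 (1.57), Ckm and Tpm2 (0.43) were higher, and the groups overlapped for all 3. Ckm was not well above background on any T4 array and was so on 2 T8 arrays, at least 1.91-fold higher (means 3.14 and 4.14, unadjusted p = 0.0112). Of the defining muscle genes, Acta1 differed by 0.04 (unadjusted p = 0.834) and Myh4 was not well above background on any of the 8 arrays. Aqp1 was -0.20 on the undisputed arrays and -0.75 with the deposited samples. The part of such tissue in the results above was not tested.

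In the following lists, no more than 2 members each passed at an unadjusted p under 0.05 (3.03% of all features higher and 1.8% lower). Higher were the cilium gene Tekt2 of 16 ependymal genes (1.23, adjusted p = 0.0544), the cytokine signalling inhibitor gene Socs1 of 14 JAK/STAT genes (0.54), the complement inhibitor gene Cd55 of 18 complement genes (0.97) and the receptor gene Kit of 13 mast cell genes (0.71). Lower were Vip of 15 neuropeptide genes, Dcx of 11 neural progenitor genes (-0.33), Cyp51 (-0.34) and Sqle (-0.24) of 22 cholesterol synthesis genes, the lipase gene Lpl of 14 cholesterol transport genes (-0.65), and Lpl and Fabp4 of 11 adipocyte genes. None passed among 4 adenosine receptors, 8 metabotropic glutamate receptors, 20 immediate early genes, 12 dorsal root ganglion genes, 11 pericyte and smooth muscle genes, 13 neutrophil genes, 8 B cell genes and 7 red blood cell genes.

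**Figure D5:**
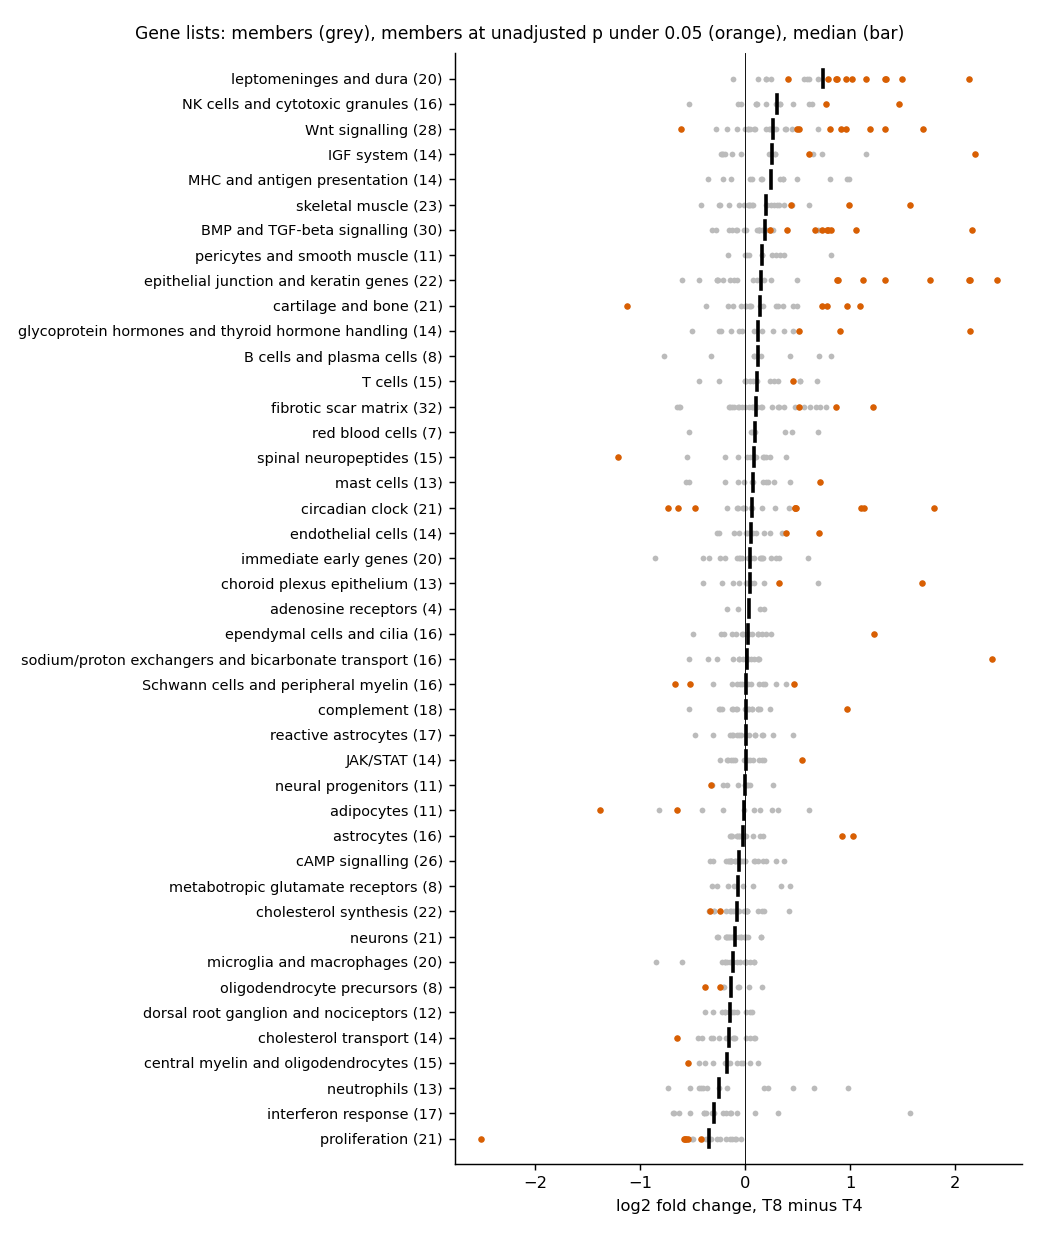
Log2 fold changes of T8 minus T4 (x axis) for the members of 43 gene lists (rows, with the number on the array), ordered by the list median (black bar); members at an unadjusted limma p under 0.05 are orange and the others grey. The leptomeninges and dura list has the highest median (0.74) and the proliferation list the lowest (-0.35), while clock genes lie on both sides of 0.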

How the data were processed

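Gene expression was measured on Agilent whole rat genome 4x44K arrays, hybridised with Cy3-labelled cRNA. The authors deposited a value table of log2 intensities after background correction and quantile normalization between arrays, and the scanner output of each array from Agilent Feature Extraction, which holds intensity values per spot. All columns of the value table share 1 set of sorted values within 0.002, with a median of 7.255, and their direction and scale were borne out by the scanner output. Every column of the 28 ranked its spots as 1 scanner output did (Spearman rho 1) and no other did (rho at most 0.993). For 16 samples, 5 of them in T4 and T8, that output was deposited under another sample (rho with the own output 0.948 to 0.992). Slides, scan sessions and background flags were taken from the matched output. Fabp4 was 3.76 and 3.27 in the columns of sham replicates 2 and 4, whose outputs were deposited under T2 replicate 4 and T1 replicate 3. It was 3.53 in both undisputed sham columns and 7.85 to 11.67 in the T1, T2, T4 and T8 columns. The column of T4 replicate 1, whose output was deposited under a sham sample, had 9.15. For sham against injured, these levels thus go with the column names. Which assignment is right among injured samples is not settled by the deposited data.

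Control spots were left out, and 43379 spots were averaged to 41012 probes and 35469 features by gene name (4498 with several probes), with no filter on dim probes. A group-means model was fitted to all 28 arrays with limma (version 3.58.1, run under R 4.3.3), with empirical Bayes moderation (2.26 prior degrees of freedom) and Benjamini-Hochberg adjustment over all features, and T8 was compared with T4. Features were called at an adjusted p under 0.05. Spread is between 4 animals in each group. The fit was tested on simulated data. Array gene names were updated through their RefSeq accessions where these were in the reference table (16802 of 19980 probes with such an accession), and names are otherwise those of the array. Probe positions are those of the array annotation (rn4), and promoters are from RefSeq (GRCr8). Motifs were searched with Python 3.11.15.

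Genes were named by a rule: every called symbol, the 12 largest rises and 12 largest falls at an unadjusted p under 0.01 with no overlap and a signal well above background on all 8 arrays, list members at an unadjusted p under 0.05 or defining a list, and the 5 symbols most alike to Slc9a2 and Arntl. A gene that met the rule is not reported here. The 43 gene lists and the rule were chosen with earlier results of these data known. Beside those described they covered adenosine and metabotropic glutamate receptors, cholesterol synthesis and transport, JAK/STAT, complement, immediate early genes, neuropeptides, dorsal root ganglion, ependymal, B, mast and red blood cells, neutrophils, pericytes, adipocytes and neural progenitors.

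The alternatives tried were other sources, scalings, background corrections, dim filters, probe summaries, samples in the fit, blocks for slide, session and replicate number, and each array left out. Normexp used median signals, since mean signals were in 8 files only.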

Additional observations from a re-analysis of the deposited data

Results flagged for a closer look

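In 8 of 228 groups of 4 arrays (114 genes in T4 and T8), 1 array stood apart from the other 3 by Dixon's test of the gap over the range at its 95% critical value, and chance gives about 1 in 20. Gzmm, which was called, had T8 replicate 4 at 11.04 against 10.18 to 10.33 in the other 3. The others were not called. On the high side, Igfbp2 had T8 replicate 3 at 13.98 against 13.06 to 13.20 in the other 3, Erbb3 had T4 replicate 4 at 7.15 against 5.64 to 5.88 in the other 3 and Tpm2 had T4 replicate 4 at 10.52 against 9.78 to 9.80 in the other 3. On the low side, Fabp4 had T4 replicate 1 at 9.15 against 10.40 to 10.49 in the other 3, Mst4 had T4 replicate 2 at 5.47 against 5.64 to 5.65 in the other 3, Ckm had T4 replicate 3 at 2.21 against 3.36 to 3.50 in the other 3 and Wnt6 had T4 replicate 3 at 8.55 against 9.21 to 9.26 in the other 3. The flags fell on 6 different arrays.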

How the results depend on the processing

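The 32 calls became 120 with normexp background correction, 59 without dim probes, 49 when only the 20 time-course arrays were fitted, 59 with slide as random block, 57 with the scan session as a block, 20 with slide as fixed block and 2 with only the 8 arrays (2238 at an unadjusted p under 0.05). Leaving out each array in turn gave 3 to 88. With the deposited samples there were 0 calls (624 at an unadjusted p under 0.05), and on the 12 undisputed arrays, chosen after seeing the data, 112 (13 higher and 99 lower, 1 shared with the 32); there the spread of the lone T4 array is taken from the other groups. With the replicate block, 15 were called, 14 of them among the 32. Same-numbered T4 and T8 arrays had correlations of their deviations from -0.18 to 0.29, and differently numbered ones from -0.34 to 0.33. Whether the numbers pair the samples was not tested. The cause of these shifts was not tested. The other settings gave between 25 and 48 calls; scaling to the 75th percentile moved the median of all features to 0.07. The 114 named genes were chosen on these same values. For those without overlap between the groups, leaving out an array cannot change the direction. None of the 114 changed direction under the 16 planned settings run for them, and nothing follows from that. With the deposited samples 15 did, none of them called: Mgp (-0.23), Podnl1 (-0.36), Bmp7 (-0.10), Msln (-0.55), Gjb2 (-0.0257), Frzb (-0.0537), Aqp1 (-0.75), Cry1 (0.26), Phex (-0.0825), Zap70 (-0.23), Wnt8b (-0.15), Ermn (0.26), Fn1 (-0.33), Tpm2 (-0.28) and Nfil3 (0.00947). On the undisputed arrays Aqp1 (-0.20) and Cyp51 (0.00418) did. In turn, 18 of the 20 called symbols lost their call without T4 replicate 2, without T4 replicate 3 and without T8 replicate 4 (Ccl21b and Slc9a2 kept theirs). In the undisputed arrays no called symbol kept its call. Precision is limited by 4 arrays in a group, and probes near background carry only bounds.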
